A study of Mus musculus with 10 samples.

Results

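The regions described here are stretches of open chromatin that were listed in mouse blood stem cells and early multipotent progenitors and were no longer listed in later progenitors of monocytes and dendritic cells. Peaks of 10 ATAC-seq libraries (a transposase cuts and tags accessible DNA, and a peak is a stretch where tags pile up) were merged on chromosomes 1 to 19 and X wherever they overlapped by at least 1 bp. The regions were chosen by detection: a merged region was kept when it held a peak in both libraries of long-term hematopoietic stem cells (LT-HSC) and both of lymphoid-primed multipotent progenitors (LMPP) and in none of 6 later lists. There were 2304 such regions among 114366 merged regions, which is 2.01%. They are called closing regions here, and a gene is said to have lost a region where that region met this rule. The lists hold positions and no signal, so a region missing from a list fell below a caller's limits there and need not have been fully shut.

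All cells were sorted from bone marrow of C57BL/6 mice, with 2 libraries per group. Wild-type LT-HSC carried the surface markers Lin- CD117+ Sca-1+ CD135- and, further, CD48- CD150+. Wild-type LMPP were sorted as Lin- CD117+ Sca-1+ cells with CD135+. The later groups were wild-type monocyte-dendritic cell progenitors (MDP; Lin- and Sca-1-, CD117+, IL-7R-, CD115+), wild-type common dendritic cell progenitors (CDP; CD117int, with CD135+ added to the MDP markers) and IRF8-deficient MDP, sorted as the wild-type ones. IRF8 is a transcription factor needed for monocyte and dendritic cell development. The cell type field of both LMPP libraries reads short-term stem cells, while their titles and surface markers name LMPP, and the titles were followed. Ages, the IRF8 allele and pooling of animals are not given in the sources used here. MDP follow LMPP by known order of development, and the libraries are separate sorts and not 1 population followed in time.

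LT-HSC replicate 1 stood apart before any result. Its list held 31325 peaks with 19.3% of tags within peaks, against 52147 peaks and 38.1% in LT-HSC replicate 2 and 50728 to 69598 peaks and 43.7% to 53.7% of tags in the other 8 libraries. Total tags ran from 4790046 to 10166833, and the 2 deepest libraries were CDP. Without LT-HSC replicate 1, 4794 regions met the rule. The fixed marker genes were checked by their nearby regions found in both libraries of a group. The stem cell gene Mecom had 9 such regions in LT-HSC, 33 in LMPP, 9 in wild-type MDP and 5 in CDP. In the same order the stem cell gene Hlf had 5, 13, 4 and 3, Fgd5 had 2, 6, 5 and 5, Procr had 1, 1, 3 and 3, and Slamf1, which encodes CD150, had 3, 1, 2 and 3. The stem cell markers thus did not share a direction. Of the LMPP markers, Flt3 had 3, 6, 9 and 13, Dntt 1, 8, 8 and 6, and Il7r 0, 3, 4 and 6. Flt3 and Il7r thus rose beyond LMPP. Csf1r, which encodes CD115, had 1, 3, 3 and 7. Of the other MDP markers, Cx3cr1 had 2, 3, 6 and 8 and Ly6c2 had 1, 2, 6 and 4. For CDP, Zbtb46 had 5, 9, 10 and 11 and Siglech had 1, 5, 8 and 9. Of red cell and platelet markers, Klf1 and Pf4 each had 2, 1, 1 and 1. Epor had 1, 1, 1 and 1, and Gp9 had 2, 2, 0 and 0. The mast cell gene Cpa3 had 3, 4, 2 and 1, and the B cell gene Pax5 had 1, 2, 2 and 5. The T cell gene Cd3e had 0 in LT-HSC, LMPP and both kinds of MDP and 1 in CDP. Cdh5, an endothelial marker, had 7, 12, 10 and 12 and was thus open in every stage. In such bulk samples, fewer cells of a type and less open chromatin per cell cannot be told apart.

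Stem cells and early progenitors keep many regulatory elements accessible, including those of genes for lineages they have not yet entered. Transcription factors such as MECOM, MEIS1 and HLF maintain the stem cell state, and GATA, RUNX and ETS factors act at many blood cell enhancers and promoters. As progenitors commit, elements of other programmes lose accessibility while lineage elements gain it. Promoters rich in CpG dinucleotides tend to stay open in most cell types, and distal elements vary more.

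Sequences are shown for closing regions that lay over gene starts, because only these could be read from the reference used here. The RefSeq table of build GRCm38.p6 (the mm10 assembly) gives windows of 300 bp, from 250 bases before to 50 after a start, and 190 of its 32619 windows overlapped a closing region. The first set holds starts of 4 genes for blood and vessel cells, and capitals mark matches to motifs read on both strands. For GATA factors these were AGATAA and, in a later step, TGATAA. The letters GGAAGT stood for ETS factors and TGTGGT for RUNX factors. The letters CAGCTG stood for E-box factors. Tek, the angiopoietin receptor of stem and endothelial cells, starts at chr4:94739039-94739338 on the plus strand. Gp1ba, a subunit of the platelet receptor for von Willebrand factor, starts at chr11:70638872-70639171 on the plus strand. The window of Cpa3, the mast cell carboxypeptidase, is chr3:20242132-20242431 on the minus strand. That of Mmrn1, encoding a protein of platelet granules, is chr6:60944067-60944366 on the plus strand.
Tek: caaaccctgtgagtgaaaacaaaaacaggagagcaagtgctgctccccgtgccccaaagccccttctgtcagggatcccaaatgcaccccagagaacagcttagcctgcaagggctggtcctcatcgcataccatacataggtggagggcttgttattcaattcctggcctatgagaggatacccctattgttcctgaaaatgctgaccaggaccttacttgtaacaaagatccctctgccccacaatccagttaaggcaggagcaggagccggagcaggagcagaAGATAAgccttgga
Gp1ba: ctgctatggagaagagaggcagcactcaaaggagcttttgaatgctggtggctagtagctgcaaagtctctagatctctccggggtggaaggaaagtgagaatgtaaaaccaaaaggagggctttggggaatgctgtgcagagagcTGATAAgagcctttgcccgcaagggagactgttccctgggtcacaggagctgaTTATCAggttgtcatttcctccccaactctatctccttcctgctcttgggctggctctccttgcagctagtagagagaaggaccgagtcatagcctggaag
Cpa3: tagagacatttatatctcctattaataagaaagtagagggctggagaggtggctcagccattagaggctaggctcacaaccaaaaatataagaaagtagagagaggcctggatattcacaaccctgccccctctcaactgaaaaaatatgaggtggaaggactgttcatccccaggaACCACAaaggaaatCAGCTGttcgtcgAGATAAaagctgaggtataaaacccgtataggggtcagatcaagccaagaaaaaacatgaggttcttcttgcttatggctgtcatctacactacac
Mmrn1: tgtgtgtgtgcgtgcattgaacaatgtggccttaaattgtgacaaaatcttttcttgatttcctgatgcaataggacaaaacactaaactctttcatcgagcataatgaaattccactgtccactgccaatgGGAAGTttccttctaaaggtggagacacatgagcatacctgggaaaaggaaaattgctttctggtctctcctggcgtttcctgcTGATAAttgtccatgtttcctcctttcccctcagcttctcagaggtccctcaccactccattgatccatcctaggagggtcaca
AGATAA stood once each in the Tek and Cpa3 windows, and Gp1ba held 2 copies of TGATAA in opposite orientations. The Cpa3 window held GATA, RUNX and E-box letters within 1 short stretch. These are matches of letters, not measured binding, and TGATAA was added to the motifs after the Gp1ba window was read. All 4 windows held GATA letters and are not typical, as AGATAA stood in 15.8% and TGATAA in 6.84% of all closing windows.

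The second set shows the contrast within the closing starts, with every CG in capitals. Dab1, an adaptor of reelin signalling in neurons (chr4:104367288-104367587, plus strand), and Hs6st2, a heparan sulfate sulfotransferase (chrX:51680428-51680727, minus strand), had the highest ratios of observed to expected CpG among the closing starts. Expected CpG is the number of C times the number of G divided by the window length.
Dab1: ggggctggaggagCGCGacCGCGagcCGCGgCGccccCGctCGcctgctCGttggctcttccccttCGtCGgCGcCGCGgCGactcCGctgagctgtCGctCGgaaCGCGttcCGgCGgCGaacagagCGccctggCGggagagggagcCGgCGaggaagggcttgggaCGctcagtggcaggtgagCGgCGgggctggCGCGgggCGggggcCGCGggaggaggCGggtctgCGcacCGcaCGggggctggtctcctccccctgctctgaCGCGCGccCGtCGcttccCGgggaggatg
Hs6st2: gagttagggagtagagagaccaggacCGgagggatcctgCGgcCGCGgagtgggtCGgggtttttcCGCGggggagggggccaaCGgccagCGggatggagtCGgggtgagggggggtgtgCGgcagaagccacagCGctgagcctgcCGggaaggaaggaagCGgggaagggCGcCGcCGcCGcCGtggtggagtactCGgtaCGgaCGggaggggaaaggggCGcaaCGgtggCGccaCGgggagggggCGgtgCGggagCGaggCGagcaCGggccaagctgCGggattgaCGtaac
Dab1 held 46 CpG (ratio 1.04) and Hs6st2 held 33 (ratio 1.02), while each of the 4 windows above held 3, with ratios from 0.149 to 0.213. The median ratio over all 190 closing windows was 0.448.

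Early regions, meaning those in all 4 LT-HSC and LMPP lists, numbered 26418. Of these, 8.72% were absent from all 6 later lists and are the closing regions, a share fixed by the rule and given as a description. Without LT-HSC replicate 1 the share was 12.3%, and with every list trimmed to the 31314 rows of the shortest it was 13.1%. A further 19483 early regions (73.7%) were in all 10 lists. Between these ends, 688 early regions were in 1 later list, 678 in 2, 669 in 3, 1311 in 4 and 1285 in 5. Early regions thus lay mostly at the ends of this range, as the plot of early regions by later lists shows.

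**Figure D1:**
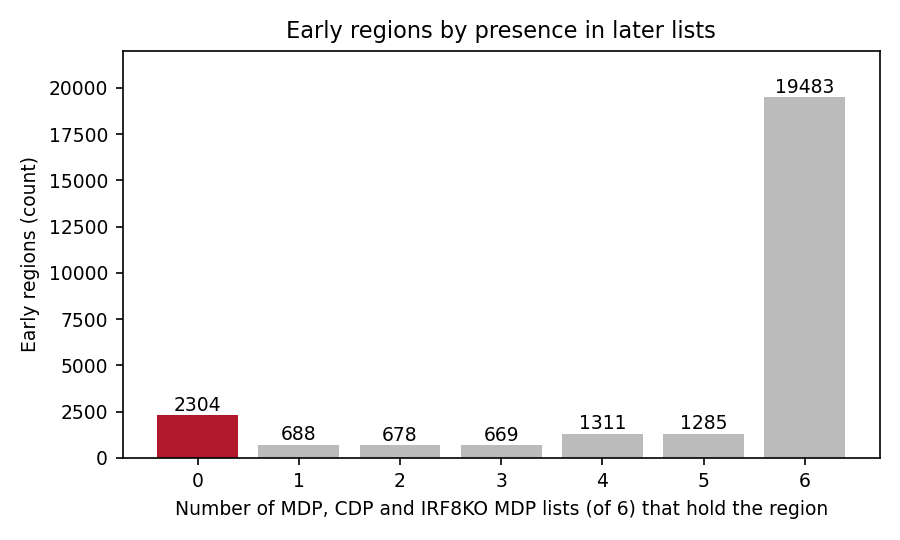
Early regions (count, vertical axis) by the number of the 6 MDP, CDP and IRF8-deficient MDP lists that hold them (horizontal axis). The red bar is the 2304 closing regions, and the bar at 6 is the 19483 regions found in every list.

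Regions that just missed the rule stood late in the list that held them. The 688 regions in 1 later list were in wild-type MDP replicate 1 (195), MDP replicate 2 (194), IRF8-deficient MDP replicate 2 (95) and replicate 1 (75), and CDP replicate 1 (87) and replicate 2 (42). Their median row position there, on a scale where 100 is the first row of the list, ranged from 8.33 in CDP replicate 2 to 13.9 in IRF8-deficient MDP replicate 1, so they sat near the ends of those lists. Early regions absent from both wild-type MDP lists but found in both CDP and both IRF8-deficient lists numbered 20. Another 104 were in both CDP lists alone and 89 in both IRF8-deficient MDP lists alone. IRF8-deficient MDP are the same stage as wild-type MDP with another genotype. Each of these 3 patterns thus held few regions beside the 2304 closing regions.

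Row order served as a proxy for peak strength, because the deposited score was the same in every row. Rows of the replicate lists ran in similar order, with Spearman correlations across regions of 0.883 for LT-HSC (29268 regions) and 0.911 for LMPP (53784 regions), and later rows held narrower peaks. Whether row order follows signal was not tested. Positions were counted among the 26418 early regions within each list, with 100 for the first. Closing regions had median positions of 31.6 and 30.4 in LT-HSC replicates 1 and 2, and of 20.4 and 18.4 in LMPP replicates 1 and 2. They thus sat lower than the regions in all 10 lists, whose medians were 59.0 to 59.2 in all 4 lists. Regions in 1 later list had medians of 29.1 and 28.4 in LT-HSC and 27.0 and 25.0 in LMPP.

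Counted among early regions, the closing regions were lower in the LMPP lists than in the LT-HSC lists, and counted over whole lists the direction reversed. Mean medians were 31.0 ± 0.862 in LT-HSC and 19.4 ± 1.47 in LMPP (SD, n = 2 each), and the groups did not overlap. The difference was -11.58, and an exact permutation test (two-sided) gave p = 0.333, the smallest p that 2 against 2 allows. Without LT-HSC replicate 1 the difference was -6.85, with lists trimmed to equal length it was -2.01, and with positions counted over whole lists it was 3.11. Of the closing regions, 1095 (47.5%) were lower in both LMPP lists than in both LT-HSC lists and 479 (20.8%) were higher, beside backgrounds of 35.0% and 30.7% of all early regions. The direction of this comparison thus depends on the scale used.

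**Figure D2:**
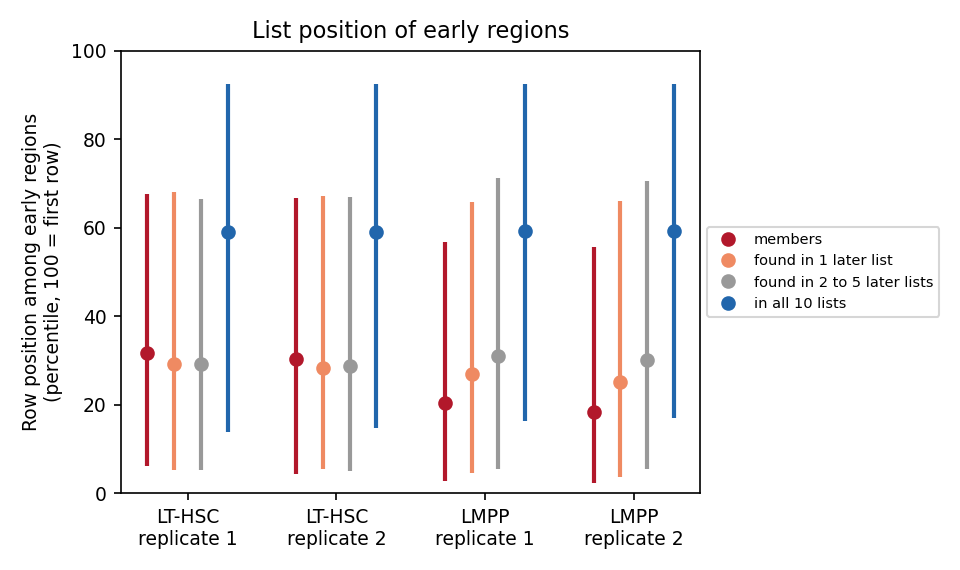
Row position among early regions (percentile, 100 is the first row) in each LT-HSC and LMPP list for 4 classes of region. Points are medians and lines run from the 10th to the 90th percentile across regions. Closing regions have medians of 31.6 and 30.4 in LT-HSC and 20.4 and 18.4 in LMPP, and regions in all 10 lists stay near 59.

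Positions of single regions are given here and below among early regions, and on that scale some went far in either direction. A region of 3538 bp located 53.5 kb from Zeb2, a repressor used in stem cells and in dendritic cell development (chr2:45169202-45172739), stood at 80.5 and 96.2 in LT-HSC and at 6.46 and 1.20 in LMPP. A region inside Tshz3, a zinc finger gene (chr7:36706448-36708370), stood at 7.78 and 8.72 in LT-HSC and at 75.4 and 72.7 in LMPP. These are the extremes of a ranking, Zeb2 with the second largest fall and Tshz3 with the largest rise, and in both the LT-HSC and LMPP values were far apart.

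The closing region of highest mean position lay 352 kb from its nearest gene, Tmem161b (chr13:84646602-84648713). It stood at 94.9 and 95.5 in LT-HSC and 94.2 and 92.3 in LMPP, so it ranked near the top in all 4 lists and was in no later list. Of the next 5, those nearest to Runx1t1, Map3k7, Lcorl and Cdc73 lay 183, 320, 630 and 401 kb from these genes, and only the region inside Gulp1 lay within a gene. The closing regions of highest position were thus mostly far from any protein-coding gene.

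Few closing regions lay at gene ends, although most had a protein-coding gene within 100 kb (82.7%). A protein-coding gene started or ended within 1 kb of 208 closing regions (9.03%, Wilson 95% interval 7.92 to 10.3), against 40.3% of all early regions and 49.95% of regions in all 10 lists. With the lists trimmed to equal length, the share in closing regions was 13.8%. Inside gene spans lay 51.9% (49.8 to 53.9), against 66.6% of regions in all 10 lists. The genes that held them were long, with a median over these regions of 156 kb against 42.1 kb for regions in all 10 lists. Regions listed only in both LMPP libraries were alike in this, with 4.86% at gene ends and a median gene length of 158 kb, and regions listed only in both LT-HSC libraries had 6.45% and 104 kb. These traits were thus not particular to closing regions. The intervals cover counting error only, and these differences are across regions of the same libraries.

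The share of early regions that closed grew with distance beyond 10 kb from genes. It was 7.11% inside genes and 5.66% up to 10 kb away, then 10.5% at 10 to 50 kb, 16.3% at 50 to 100 kb, 22.2% at 100 to 200 kb, 31.4% at 200 to 500 kb and 35.1% (53 of 151) beyond 500 kb. Beyond 100 kb from any gene lay 398 closing regions, 17.3% of them, against 3.19% of regions in all 10 lists. Regions seen only in both LMPP lists had a like share of 15.8%, and those only in both LT-HSC lists 13.4%. Distance from genes was thus not particular to closing regions.

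Within genes, the share that closed grew with the length of the gene. Away from gene ends it ran from 5.71% in genes under 20 kb to 25.8% (191 of 739) in genes over 500 kb. Within 1 kb of a gene end it ran from 1.11% to 13.7% (13 of 95) over the same lengths. Both series rose at every step, and at each length the share was lower near gene ends.

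**Figure D3:**
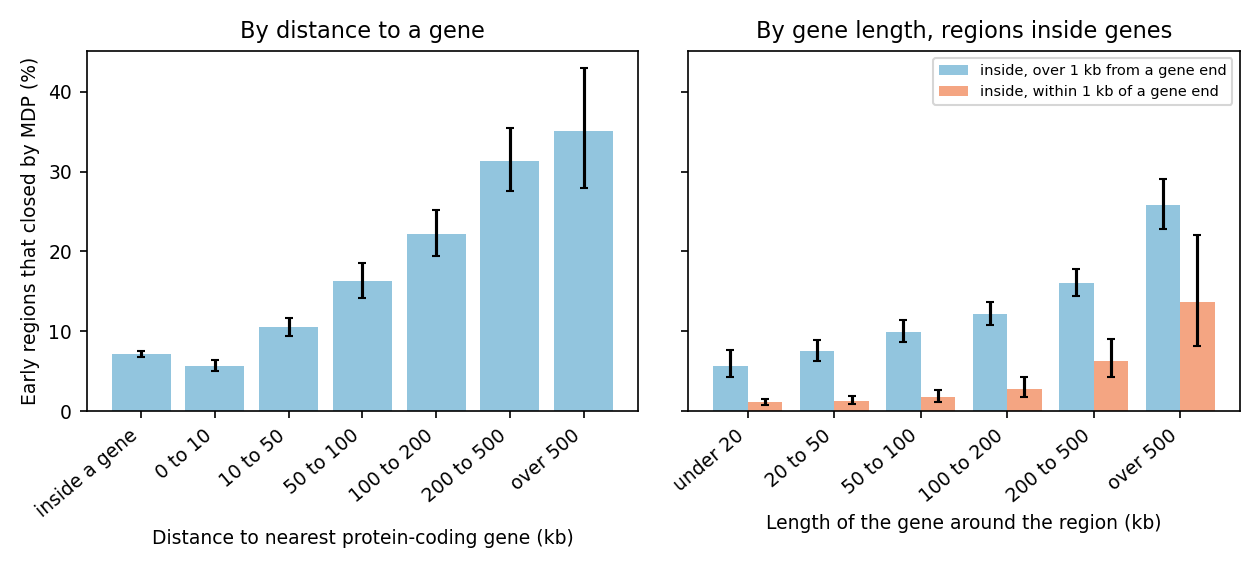
Share of early regions that were closing regions (percent) by distance to the nearest protein-coding gene (left, kb) and, for regions inside genes, by gene length (right, kb). Bars are shares with Wilson 95% intervals. On the left the share goes from 7.11% inside genes to 35.1% beyond 500 kb, and on the right from 5.71% to 25.8% away from gene ends.

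Other open chromatin was farther from closing regions than from early regions in general. The median distance to the nearest region listed in both wild-type MDP libraries was 21.5 kb for closing regions. It was 8.20 kb for early regions and 7.17 kb for regions in all 10 lists. To the nearest region gained from LMPP to wild-type MDP (both MDP lists and neither LMPP list) it was 121 kb against 36.0 kb. By chromosome, closing regions made up from 4.41% of early regions on chromosome 19 (31 of 703) to 11.9% on chromosome 3 (193 of 1620). Closing regions also came in unbroken runs. In 94 places at least 3 neighbouring early regions all closed, which took in 341 closing regions (14.8%), and 17 runs had 5 or more. How many such runs the closing share of 8.72% would give by itself was not computed.

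The longest run had 8 closing regions over 793 kb at chr6:55355928-56149193, around Aqp1, a water channel of red cells and vessels, Adcyap1r1, the receptor for the neuropeptide PACAP, Itprid1, Neurod6, a neuronal transcription factor, and Pde1c. Of 33 merged regions in that span, 0 were in both wild-type MDP lists. A run of 6 covered 268 kb within Ppp2r2b (chr18:42714473-42982442), and one of 5 covered 197 kb at Mmrn1 and Ccser1 (chr6:60931113-61127976). Both of these spans also had 0 regions in both wild-type MDP lists. A run of 6 between Plpp3 and Usp24 on chromosome 4 differed, since 5 of the 34 merged regions there were in both wild-type MDP lists. Some runs thus held no region shared by both wild-type MDP lists, and others did. A region in a single MDP list is not counted here.

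Each closing region was given to whichever protein-coding gene lay nearest, up to 100 kb away, which placed 1906 of them at 1488 genes. These were 7.64% of the 24933 early regions so placed. Of 12741 genes with an early region, 11.7% had at least 1 closing region, and 2730 genes did without LT-HSC replicate 1. Most had 1 (1189 genes), 215 had 2, 60 had 3, and Dlg2 had the most with 8. At 1281 of the 1488 genes (86.1%) some region was still found in both wild-type MDP lists, against 98.8% of genes with early regions and no closing one. At 671 (45.1%) a region was gained from LMPP to MDP, beside 37.1% of all genes with an early region. Closing was thus mostly partial for a gene, although 277 genes had no early region left outside the rule.

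Of 2716 genes with at least 3 early regions, 16 (0.589%) had closing regions alone. They were Ppp2r2b (6 regions), Il1rapl2 and Luzp2 (5 each), Hs3st5 and Mmrn1 (4 each), and Accsl, Brinp2, Clec14a, Cyyr1, Dnaaf5, Frem2, Kcnip4, Nlgn1, Sorbs2, Tafa1 and 4930486L24Rik (3 each). Mmrn1 encodes a platelet granule protein, Clec14a a surface lectin of endothelial cells, Hs3st5 a heparan sulfate sulfotransferase, Ppp2r2b a regulatory subunit of protein phosphatase 2A, and Nlgn1 an adhesion protein of synapses. All of these except Hs3st5 and Accsl had 0 regions in both wild-type MDP lists.

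Mmrn1 (gene 70945, chr6:60944317-60989378) showed the 4 closing regions of such a gene side by side. The one over its start stood at 42.9 and 48.2 in LT-HSC and 69.7 and 66.0 in LMPP. The one 2.35 kb from that end, inside the gene, stood at 78.7 and 86.1 in LT-HSC and 60.5 and 60.4 in LMPP. The one 8.82 kb away stood at 87.5 and 78.9 in LT-HSC and 10.8 and 24.2 in LMPP. The start was thus higher in both LMPP lists while these neighbours were lower. So was the farthest, 12.8 kb away, at 57.9 and 60.6 in LT-HSC and 45.5 and 39.2 in LMPP.

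Transcription factors of stem cells had closing regions beside kept ones. In that list, 19 of 145 early regions closed (13.1%, 8.55 to 19.6), at 9 of 26 genes, beside 7.64% of all placed early regions, and without LT-HSC replicate 1 it was 48 regions and 21.5%. Up to 100 kb of gene length the share was 8.33% at list genes (5 of 60) and 5.30% at others, and from 100 to 200 kb it was 13.04% (3 of 23) and 10.3%. From 200 to 500 kb it was 15.1% (8 of 53) and 14.0%, and over 500 kb 33.3% (3 of 9, at 1 gene) and 24.6%. List genes were thus above other genes of like length in each bin, at low counts and without a test. The part of gene length in this share was not tested. Mecom, a zinc finger factor of stem cell self-renewal, lost 3 of 9 early regions, and Meis1, a homeodomain partner of HOX proteins, lost 3 of 15. Bcl11a lost 3 of 17, Prdm16, which maintains stem cells, 2 of 5, and Hlf 1 of 5. None of these genes was emptied of open chromatin, as regions found in both wild-type MDP lists numbered 9 at Mecom, 13 at Meis1, 5 at Prdm16 and 4 at Hlf.

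The highest closing region at Mecom, at chr3:30476726-30477651 inside the gene (gene 14013), stood at 38.3 and 37.8 in LT-HSC and 47.2 and 42.2 in LMPP. The region at Hlf lay 2.25 kb from the gene and stood at 54.3 and 72.4 in LT-HSC and at 56.3 and 9.55 in LMPP. At this Mecom region both LMPP values were above both LT-HSC values. At another inside the gene, chr3:30448530-30449133, they were below, at 12.3 and 18.3 against 19.6 and 21.7. At Hlf the LMPP replicates were far apart and the groups overlapped.

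Other regulators with closing regions were Nfib (5 of 8 early regions), Nfia (4 of 20), both nuclear factor I proteins, and Runx1t1 (3 of 4), a corepressor known as ETO. At Runx1t1 the 3 regions inside the gene stood between 51.7 and 85.0 in the LT-HSC lists and between 15.5 and 39.2 in the LMPP lists. These ranges did not overlap. Among the fixed genes, 0 early regions closed at Runx1 (of 9), Erg (of 6), Spi1 (of 3), Gata2 (of 3), Hoxa9 (of 2), Cebpa (of 2) and Gfi1b (of 1), all transcription factor genes. At these low counts 0 is near the 7.64% of all placed early regions. Irf8 had 1 early region, which did not close, and gained 10 from LMPP to wild-type MDP. Kit and Flt3, receptors of progenitor growth factors, had 3 early regions each, and all 6 were in all 10 lists.

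**Figure D4:**
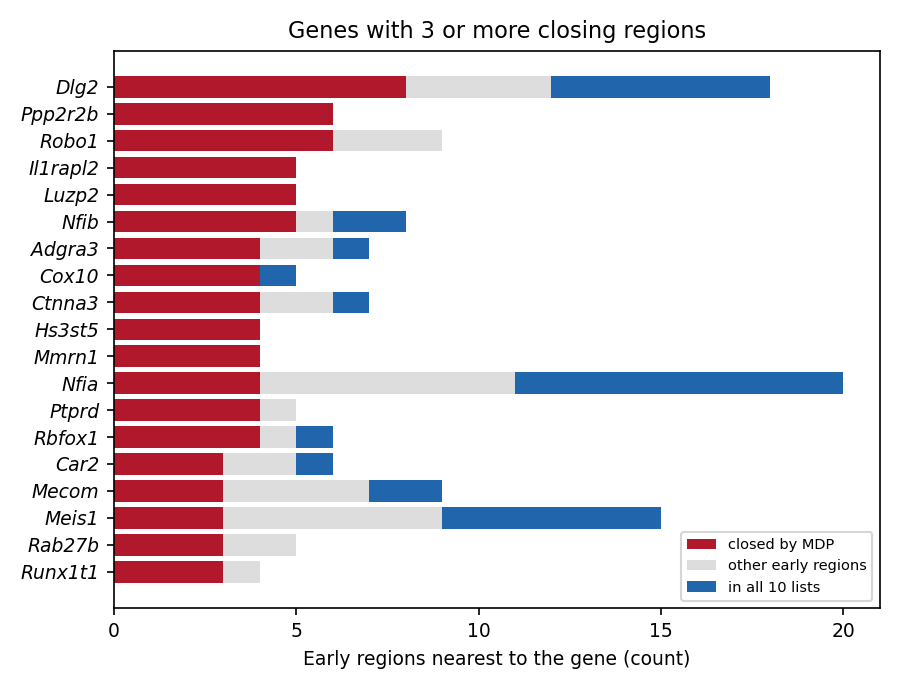
Early regions nearest to each gene (count, horizontal axis) for most of the named genes with 3 or more closing regions. Red is closing regions, grey other early regions and blue regions in all 10 lists. Ppp2r2b, Il1rapl2, Luzp2, Hs3st5 and Mmrn1 are red throughout, and Nfia, Meis1 and Dlg2 also hold blue.

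Surface and signalling genes of stem cells lost 10 of 85 early regions (11.8%, 6.52 to 20.3), at 8 of 30 genes, and the interval includes the 7.64% of all placed early regions. Tek (gene 21687) had a single early region, which lay over its start and stood at 23.9 and 36.3 in LT-HSC and 25.4 and 23.1 in LMPP. Ndn, encoding necdin, a growth suppressor, likewise had 1, at 65.3 and 65.2 in LT-HSC and 19.1 and 8.56 in LMPP. Ndn was thus lower in both LMPP lists, and Tek overlapped between groups. Igf1r, the receptor for insulin-like growth factor 1, lost 2 of 14, and Trpc6, a calcium channel, lost 2 of 5. HOX and TALE homeobox genes lost 9 of 41 (22.0%), among them 3 of 15 at Meis1 and 2 of 4 at Meis2.

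Genes of the platelet and red cell lineages had closing regions at low counts. Megakaryocyte genes lost 8 of 68 early regions (11.8%, 6.08 to 21.5), an interval that includes the 7.64% of all placed early regions. Gp1ba and Gp9, both subunits of the platelet glycoprotein Ib complex, lost 1 of 1 and 1 of 2, each over an end of the gene. The Gp1ba region stood at 50.7 and 49.97 in LT-HSC and 2.09 and 1.54 in LMPP, and the Gp9 region at 51.3 and 47.0 and at 3.06 and 0.954. Both were thus low among the early regions of the LMPP lists. Rab27b, which acts in granule secretion, lost 3 of 5.

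Erythroid genes lost 8 of 46 (17.4%, 9.09 to 30.7), beside 7.64% of all placed early regions. With genes assigned within 20 kb it was 5 regions, a count given without its share. Car2, a carbonic anhydrase of red cells, lost 3 of 6, the highest of which, 15.0 kb from the gene, stood at 60.8 and 60.8 in LT-HSC and 72.5 and 70.3 in LMPP. Gypc, a red cell membrane glycophorin, lost 2 of 4. The mast cell list lost 1 of 17 (5.88%, 1.05 to 27.0), an interval that includes the 7.64%. This was the start of Cpa3, at 58.1 and 41.6 in LT-HSC and 28.8 and 31.6 in LMPP.

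Lists of myeloid and lymphoid genes were near the share of all placed early regions. Monocyte and macrophage genes lost 2 of 44 (4.55%, 1.26 to 15.1), dendritic cell genes 2 of 56 (3.57%, 0.985 to 12.1; both at Zeb2) and neutrophil genes 0 of 9, with an upper limit of 29.9%. Lymphoid priming genes lost 5 of 91 (5.49%), among them 2 of 16 at Bach2, a repressor in lymphoid progenitors, and 1 of 6 at Gata3, a T cell factor. T and NK cell genes lost 3 of 22 and endothelial and stromal genes 4 of 42. Genes of the TGF-beta and BMP pathway, signals that hold stem cells quiescent, lost 7 of 82 (8.54%), with 1 of 3 at the ligand Bmp4 and 1 of 5 at the signal transducer Smad1. Cell cycle genes lost 0 of 49 and housekeeping genes 0 of 31, whose Wilson upper limits are 7.27% and 11.0%. The intervals of the monocyte, dendritic and lymphoid lists included the 7.64% of all placed early regions.

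The list with the highest share was that of neural adhesion and axon guidance genes, with 63 of 188 early regions (33.5%, 27.2 to 40.5) at 26 of 37 genes. The lists were chosen with earlier results of these data known, so this high share is a description and not a test. Dlg2, a scaffold protein of synapses, lost 8 of 18, the most of any gene. Robo1, a receptor for the guidance cue Slit, lost 6 of 9, and Ctnna3, an alpha catenin of cell contacts, lost 4 of 7. Of these 4, the region at chr10:64090005-64090670 lay over a start of Lrrtm3, a gene inside Ctnna3. Nlgn1 lost 3 of 3, and Nrxn3, of the neurexins that bind neuroligins, lost 3 of 7. At Dlg2 the closing regions ran from 0.394 to 84.7 in the LT-HSC lists and from 2.26 to 62.9 in the LMPP lists, so the closing regions of Dlg2 did not share a level. At Robo1 the region at chr16:72670172-72671432 was higher in LMPP (69.1 and 63.3) than in LT-HSC (52.2 and 50.7).

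These genes are long, with a median of 798 kb over the list against 17.3 kb over all genes, and length moved with closing in general. Among genes over 500 kb, 49 of 133 early regions closed at list genes (36.8%) and 182 of 804 at other genes (22.6%). From 200 to 500 kb it was 26.0% and 13.8%. The list, chosen with earlier results known, was above other genes of like length in both bins, without a test. The part of gene length in its share was not tested further. Without LT-HSC replicate 1 the list's share was 40.7%.

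Few closing regions were at gene starts. Of 13006 start windows within an early region, 190 (1.46%) lay in closing regions, which were 166 regions or 7.20% of all closing regions. With trimmed lists 315 regions overlapped a start, and without LT-HSC replicate 1 it was 285. The starts belonged to 130 protein-coding genes, 1.39% of the 9377 with a start in an early region, and to 40 long noncoding RNA genes. At 121 of the 130, no other start in the table lay in a region of both wild-type MDP lists. The table covers 17273 of 21627 protein-coding genes, and chromosome 18 has no entries.

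Closing starts were poorer in CpG than starts that stayed listed. The median CpG ratio was 0.448 in the 190 closing windows, 0.787 in 12059 windows of regions in all 10 lists and 0.201 in 15738 windows in no region. A ratio over 0.6 was reached by 53 closing windows (27.9%, 22.0 to 34.7), against 75.7% of those in all 10 lists and 5.92% of those in no region. In 757 windows of early regions neither closing nor in all 10 lists, the median was 0.564 and 44.9% were over 0.6. Closing starts thus lay below both other kinds of early start and above starts in no region. A ratio lower than in all 10 lists was not particular to closing starts. The Dab1 and Hs6st2 windows printed above had the highest ratios of the closing windows.

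**Figure D5:**
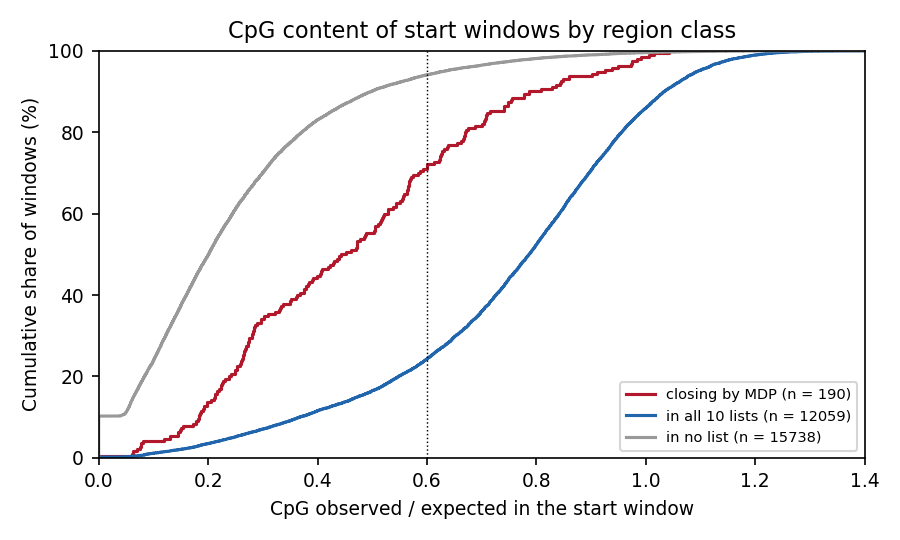
Cumulative share of RefSeq start windows (percent, vertical axis) against their ratio of observed to expected CpG (horizontal axis) for windows in closing regions, in regions of all 10 lists and in no region. The dotted line marks 0.6, above which lie 27.9%, 75.7% and 5.92% of the windows.

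Motif letters were counted in the same windows, on both strands. AGATAA stood in 15.8% of closing windows, 5.46% of windows in all 10 lists, 15.8% of windows in no region and 11.2% of all windows. TGATAA stood in 6.84%, 3.86%, 13.7% and 9.001% in the same order. The RUNX letters TGTGGT were in 21.6% of closing windows against 12.02% in all 10 lists and 16.6% of all windows, and CAGCTG in 21.6% against 13.9% and 16.4%. The ETS letters GGAAGT were in 19.5% against 29.3% and 23.9%, and GGGCGG, bound by KLF and SP factors, in 38.9% against 66.5% and 35.9%. In windows in no region TGTGGT stood in 19.8%, CAGCTG in 17.3%, GGAAGT in 19.8% and GGGCGG in 11.1%. Closing windows were thus above those in all 10 lists for the GATA, RUNX and E-box letters and below them for the ETS and KLF letters. In 757 windows of early regions neither closing nor in all 10 lists, AGATAA stood in 8.85%, TGATAA in 5.02% and TGTGGT in 12.8%. CAGCTG stood in 18.8% of these windows, GGAAGT in 16.0% and GGGCGG in 47.2%. ETS and KLF shares below those in all 10 lists were thus not particular to closing windows. PU.1 letters GAGGAAGT, which contain GGAAGT, were in 1.05% of closing and 3.22% of all windows. The C/EBP letters TTGCNNAA were in 10.0% and 10.9%, the interferon response element in 5.79% and 3.46%, and the AP-1 letters TGANTCA in 6.84% and 7.85%. The letters TGACAG (MEIS) were in 18.4% and 18.9%, TGATTNAT (HOX factors with a partner) in 3.68% and 3.24%, and the E-box CATCTG in 15.3% and 17.1%. Those of CTCF were in 0.526% and 2.44%, and those of NFI in 0 closing windows and 0.0368% of all. In windows of all 10 lists, the C/EBP letters were in 8.04%, the interferon response element in 2.99% and the AP-1 letters in 4.25%. The MEIS letters were in 16.3% of them, the HOX letters in 1.14% and CATCTG in 10.3%. Closing windows were above these shares too, so higher shares were not particular to the GATA, RUNX and E-box letters. For PU.1 (3.28%) and CTCF (3.18%) they were below. Base composition moves with these shares, and its part in them was not tested.

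The protein-coding genes with closing starts served many cell types, and those named here were chosen after their values were seen. Clec14a and Myct1, both expressed in endothelial cells, stood at 81.3 and 81.4 and at 70.2 and 81.1 in LT-HSC, and at 54.9 and 49.1 and at 59.1 and 52.7 in LMPP. Cavin2, a coat protein of caveolae, stood at 90.1 and 93.6 in LT-HSC and 17.1 and 25.9 in LMPP. Each of these was lower in both LMPP lists among early regions, and whole-list positions were not compared for single regions.

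Of genes in retinoid metabolism, Rbp2, a retinol-binding protein, stood at 80.9 and 85.4 in LT-HSC and 74.9 and 75.2 in LMPP. Aldh1a1, which makes retinoic acid and is used to mark stem cells, stood at 65.8 and 48.6 in LT-HSC and 3.34 and 7.90 in LMPP. Lrat, which stores retinol as esters, stood at 40.9 and 39.0 in LT-HSC and 49.9 and 58.4 in LMPP. These 3 starts did not share a direction. Pdk4, a kinase that restrains pyruvate use, stood at 89.8 and 90.01 in LT-HSC and 59.9 and 40.2 in LMPP.

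Close to 19 microRNA hairpins of the RefSeq table, a closing region lay within 10 kb. Of these, 7 (Mir377, Mir541, Mir409, Mir412, Mir369, Mir410 and Mir3072) lay near a single region at Rtl1 in the imprinted cluster of chromosome 12 (chr12:109749685-109750498). It stood at 52.5 and 37.0 in LT-HSC and 15.1 and 18.8 in LMPP. The same region thus accounts for all 7, and it was lower in both LMPP lists. The count of 19 hairpins has no share over all early regions beside it and is a description only.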

How the data were processed

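Open chromatin was read from peak lists of 10 libraries, 2 in each of 5 groups taken from the sample titles. Bowtie 1.1.2 and HOMER 4.9 are the tools, and mm10 the build, per the submitters' processing notes. Peak calling was done library by library with HOMER, per the file headers, at a starting size of 500 bp, peaks at least 1000 bp apart, a false discovery rate of 0.001, 4-fold local enrichment and at most 1 tag per base pair. Any shift of reads for the transposase cut was not given in the sources used here. As deposited by the authors, the score column is 1 in every row, so it was not used, and no tag counts per peak were used. Columns deposited by the authors for chromosome, start and end were merged at 1 bp overlap on chromosomes 1 to 19 and X (Python 3.11.15, pandas 2.3.3, scipy 1.17.1). Coordinates are 1-based, mm10.

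Gene spans were those of RefSeq (GRCm38.p6) without strand, so gene ends stand for starts except in the start windows. Of 431 entries in 16 gene lists, 426 matched a symbol. Named genes were the 12 with most closing regions, the first 3 of each list, those nearest the 6 closing regions of highest mean position, and 17 fixed genes. A few of these genes are not reported here. The regions and lists were chosen with earlier results of these data known. Planned motif shares within regions were not run, and 15 motifs were searched in start windows. The procedure was tested on simulated lists. No p-value was computed except the exact permutation test, over libraries that the study calls biological duplicates, with sources of the IRF8-deficient ones not given.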

Additional observations from a re-analysis of the deposited data

How the results depend on the processing

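The peak lists allowed detection to be compared, not signal, and LT-HSC replicate 1, with the fewest peaks, decided the number of closing regions. Leaving out each library in turn gave 2347 to 4794 closing regions and 1510 to 2730 genes with at least 1, the highest without LT-HSC replicate 1 (4794 and 2730); without it, 48 closed at stem cell transcription factors and 114 at neural adhesion genes. With lists trimmed to equal length, the share within 1 kb of a gene end was 13.8%, inside genes 56.7% and within 100 kb of a gene 85.3%. The gene-end share was 7.82% with regions over 2000 bp left out and 12.3% at 2.5 kb, and 67.1% of closing regions had a gene within 20 kb. The position difference between LMPP and LT-HSC (main value -11.58) reversed to 3.11 when counted over whole lists, whose lengths differ; leaving out each library gave -12.70 to -6.85. With the replicate block, pairing LT-HSC and LMPP by replicate number, it was -11.58 with exact p = 0.5, the smallest that 2 pairs allow; the numbers are not known to pair the samples. Start-window alternatives and whole-list positions were chosen after seeing the data. Motif windows of other lengths were not run.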
